A study of Mus musculus with 48 samples.

Results

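The hepatocyte zonation markers described here are 10 genes, chosen by name, of the 29221 genes counted in whole mouse liver. The 6 pericentral markers were Glul, Oat, Rhbg, Slc1a2, Lgr5 and Axin2, and the 4 periportal markers were Hal, Sds, Gls2 and Cdh1. They were taken by gene symbol, and all 10 passed the filter on low counts in every comparison. On a diet with added cholesterol and fructose, compared with a high-fat diet, Gls2 was lower and the adhesion gene Cdh1 higher in both sexes and both genotypes, and Hal was lower in 3 of these 4 comparisons. Each pericentral marker except Rhbg was lower in 1 to 3 of them. These comparisons called 14.5% to 41.7% of all genes tested. Gls2 in both female genotypes and Cdh1 in control females lost their call in most fits that left out 1 liver.

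Hepatocytes are arranged in lobules, and their gene expression changes along the path of the blood from the portal tract to the central vein. Wnt ligands and R-spondins made by central vein endothelium activate beta-catenin in the nearest hepatocytes, which then express glutamine synthetase and other pericentral genes. Periportal hepatocytes meet blood rich in oxygen and amino acids, and they carry out gluconeogenesis, urea synthesis and the breakdown of amino acids. Ammonia that escapes the periportal urea cycle is captured as glutamine in the last cell layers around the central vein. Bulk liver RNA holds no positions, so a marker's level is that of the whole tissue, and fewer cells of a type cannot be told apart from less RNA per cell.

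The study measured RNA from the livers of 48 adult mice, 1 library per liver, with 15338239 to 22072884 reads on genes per library. All mice carried floxed Pparg, the gene of the lipid-responsive nuclear receptor PPARγ. After 16 weeks on diet they received AAV8-TBG-Cre, a virus in which the hepatocyte-active TBG promoter drives Cre, or, as controls, AAV8-TBG-null, the same vector without Cre. Males and females on a high-fat diet (HF) were fed it for 34 weeks. The HFCF groups of both sexes were fed HF for 18 weeks and then, for 16 weeks, a feed with high levels of fat, of cholesterol and of fructose. Low-fat diet (LF) was fed for 34 weeks to females, and LF males are not analysed here. Each of the 4 male groups had 6 livers and each of the 6 female groups had 4, and controls and Cre-treated mice formed separate groups throughout. Numbered replicates are separate mice by the series' description. Since the TBG promoter is active in hepatocytes, floxed Pparg in the other cells of these livers is not the target of the virus.

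Pparg itself was read in every group, since it tests the labels. No Cre-treated group had a lower mean than its control, with 41.1 ± 14.1 CPM (counts per 1e6 reads, SD, n = 6) against 34.2 ± 3.94 (n = 6) in HF males, 56.3 ± 6.18 against 32.35 ± 5.47 (n = 6 each) in HFCF males, and 45.8 ± 9.37 against 23.7 ± 1.46 (n = 4 each) in HFCF females. Pparg was higher in the labelled knockouts on HFCF, by 0.81 on the log2 scale in males (SE 0.11, edgeR adjusted p = 0.000805) and by 0.97 in females (SE 0.13, adjusted p = 0.0422), and did not pass in the other 3 comparisons. The counts cover the whole gene and do not separate deleted from retained exons. The groups are therefore called labelled knockouts below. Markers of hepatocytes, 9 of whose 10 listed genes were found, were present in every library, summing to between 45760 and 128300 CPM.

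Promoter sequences are given for Oat, Slc1a2 and Hal, members of both zones that fell in the same comparison. RefSeq (assembly GRCm38.p6) supplied the promoter of 5 of the 10 members: Glul, Oat, Slc1a2, Axin2 and Hal. Each sequence is the 250 bases before the annotated transcription start, 5′ to 3′ on the gene's strand. Capitals mark CTTTGA or its reverse complement TCAAAG, a core sequence recognised by the TCF/LEF factors through which Wnt signals act. Oat lies on the minus strand at chr7:132576399-132576648, Slc1a2 on the plus strand at chr2:102706188-102706437 and Hal on the plus strand at chr10:93488518-93488767. The Slc1a2 window lies inside the gene as the deposited tables delimit it, since the RefSeq start is downstream of the first base of the gene there.
Oat: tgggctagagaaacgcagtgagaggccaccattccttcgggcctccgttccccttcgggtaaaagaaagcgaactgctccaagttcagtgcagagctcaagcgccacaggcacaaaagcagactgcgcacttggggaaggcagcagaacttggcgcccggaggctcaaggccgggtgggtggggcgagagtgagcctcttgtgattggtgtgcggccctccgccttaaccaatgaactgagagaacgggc
Slc1a2: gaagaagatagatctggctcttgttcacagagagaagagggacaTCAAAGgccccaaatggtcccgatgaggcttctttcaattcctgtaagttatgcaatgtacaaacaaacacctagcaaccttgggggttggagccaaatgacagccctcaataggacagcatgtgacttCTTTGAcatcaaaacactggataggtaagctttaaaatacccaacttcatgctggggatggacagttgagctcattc
Hal: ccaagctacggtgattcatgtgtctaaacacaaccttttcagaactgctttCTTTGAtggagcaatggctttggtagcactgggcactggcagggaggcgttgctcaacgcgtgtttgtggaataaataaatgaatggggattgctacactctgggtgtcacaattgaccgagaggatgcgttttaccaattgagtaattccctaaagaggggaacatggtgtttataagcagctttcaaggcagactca
The pericentral Slc1a2 held 2 matches, starting 206 and 77 bases before the start site, and the periportal Hal held 1, starting 199 bases before it. Oat, Glul and Axin2 held 0. Of 32851 promoter windows of the same length in the table, 4544 (13.83%) held a match on either strand. A match is a description of letters, and its absence says only that these letters are not in this window.

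Levels were compared between genes per length, as the authors' FPKM (fragments scaled by gene length and library size). Over the 10 groups Glul, glutamine synthetase, had group means of 376 to 540 FPKM and was the most abundant member. Oat, ornithine aminotransferase, which makes glutamate from ornithine, followed with 214 to 467 FPKM. The periportal enzymes were next. Sds, serine dehydratase, ranged from 51.1 to 175 FPKM, Gls2, the liver glutaminase that frees ammonia from glutamine, from 48.5 to 166, and Hal, histidine ammonia-lyase, from 21.1 to 88.4. Slc1a2, the glutamate transporter GLT-1, had 11.2 to 24.3 FPKM and Cdh1, E-cadherin, 3.15 to 13.9. Axin2, a Wnt target that limits beta-catenin, had 2.14 to 3.65 FPKM. Rhbg, an ammonium transporter, and Lgr5, an R-spondin receptor, were the scarcest, with group means of 0.770 to 1.54 and 0.701 to 1.58 FPKM. Their counts were 11 to 85 and 78 to 360 reads per library, which limits their precision.

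**Figure D1:**
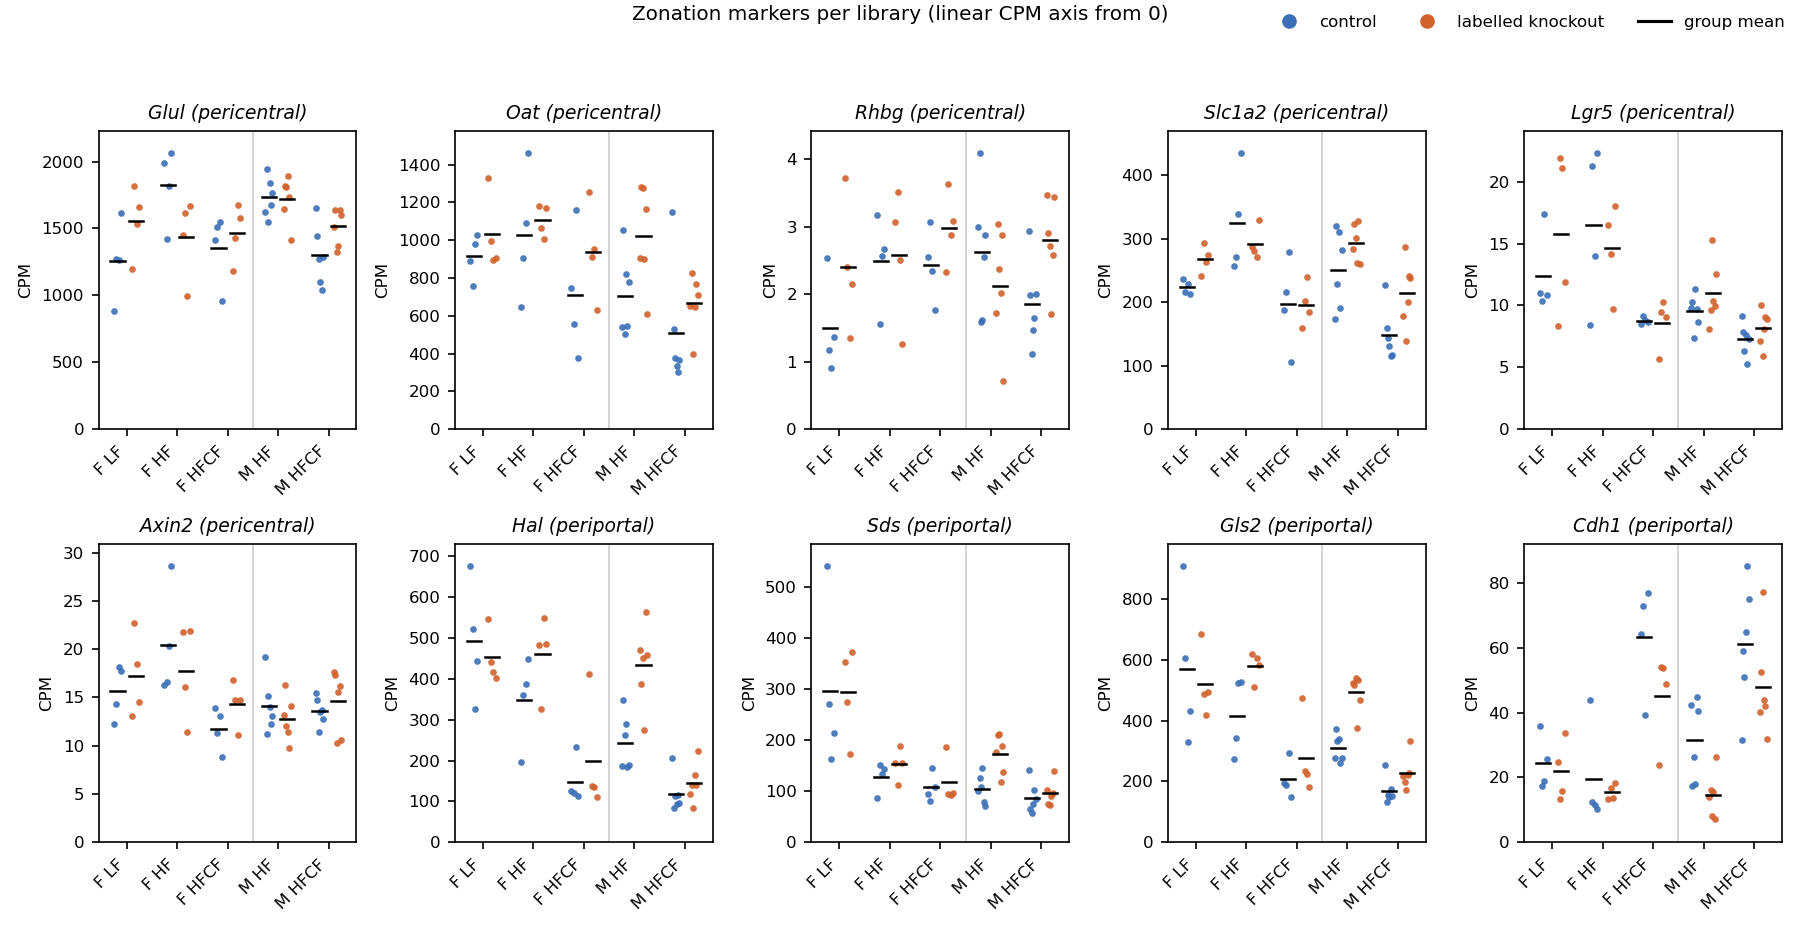
CPM (after TMM scaling, linear axis from 0) of the 10 zonation markers in each of 48 livers, by sex (F, M), diet (LF, HF, HFCF) and genotype; points are livers and bars are group means. Hal and Gls2 sit low on HFCF in both sexes, where Cdh1 sits high, and Glul spans the narrowest range of group means.

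Within a gene, the spread over the 10 group means was widest for Cdh1, 4.36-fold between labelled-knockout HF males (14.5 CPM) and control HFCF females (63.3 CPM). It was 4.17-fold for Hal, 3.42-fold for Gls2 and 3.40-fold for Sds. For the pericentral genes it was 2.27-fold for Lgr5, 2.18-fold for Slc1a2, 2.17-fold for Oat, 1.99-fold for Rhbg, 1.74-fold for Axin2 and 1.45-fold for Glul. Control HFCF males had the lowest mean for 6 members: Oat, Slc1a2, Lgr5, Hal, Sds and Gls2. Control HF females had the highest mean for Glul, Slc1a2, Lgr5 and Axin2. In the order of the group means, each group's range of libraries overlapped that of its next neighbour for all 10 members. The order of neighbours is therefore not resolved by the libraries.

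Several livers stood apart from their groups for these genes. Control HFCF male 1 had 1148 CPM of Oat against 302 to 528 in the other 5, and its summed bile duct epithelium markers were 188 CPM against 516 to 624. Control HF female 1 had 43.8 CPM of Cdh1 against 10.2 to 12.5, with marker sums of 314 against 74.6 to 102 CPM. Labelled-knockout HFCF female 1 had 413 CPM of Hal against 110 to 137, with marker sums of 282 against 515 to 604 CPM. These 3 livers are kept, and results that turn on them are also given without them. They were picked by their values of these same genes. Fits without them therefore show only how far calls turn on 1 liver, and are no support for a call.

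Each of 13 pairs of groups was tested with edgeR's quasi-likelihood test, with Benjamini-Hochberg adjustment of p over every gene in the fit. A gene is called higher or lower where the adjusted p is under 0.05. Fold changes below are log2 values of the first group minus the second, with the standard error (SE) of the fit. Comparisons that share a group of livers are not independent of each other.

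**Figure D2:**
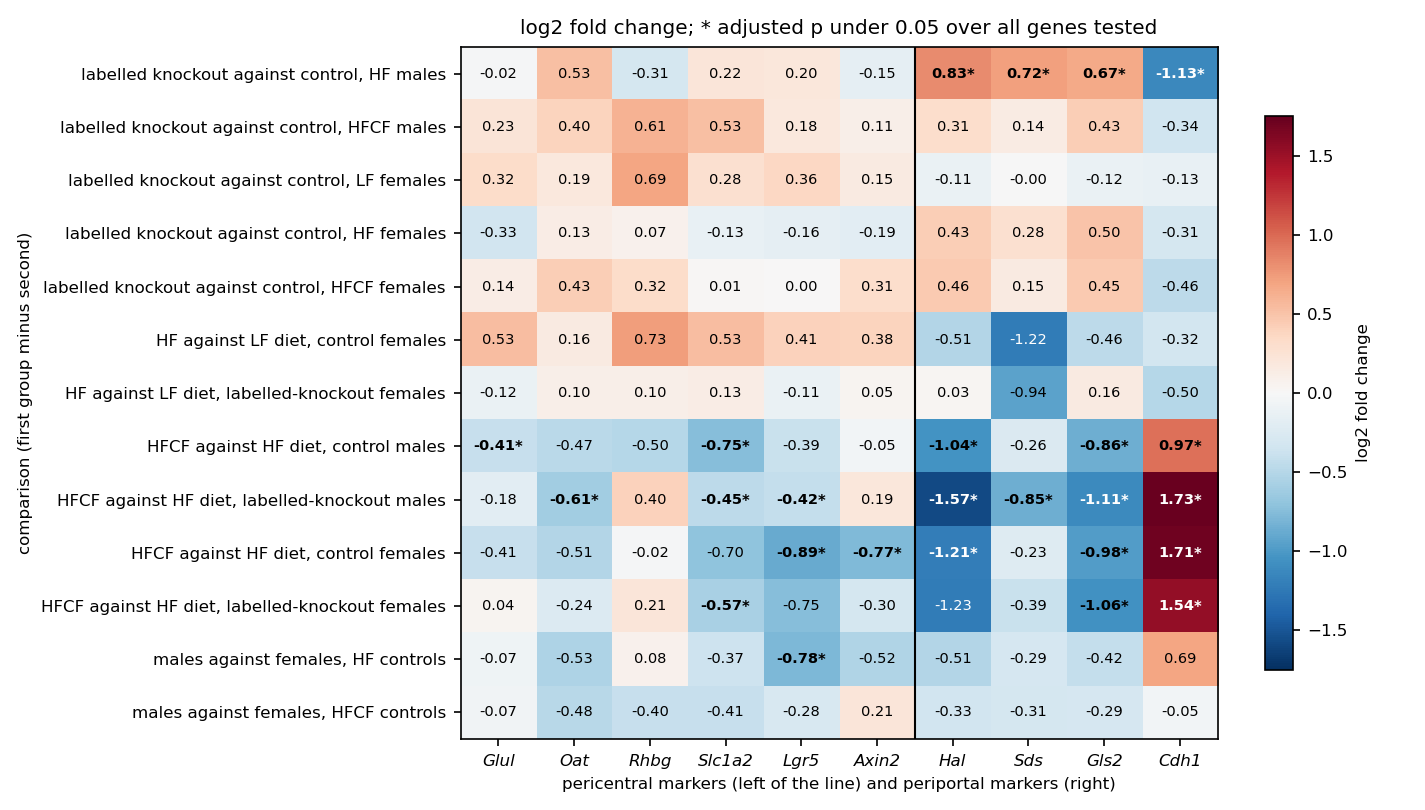
The log2 fold change of each marker (columns) in 13 comparisons (rows), coloured from blue (lower in the first group) to red (higher); an asterisk marks an adjusted p under 0.05. The HFCF rows hold 20 of the 25 calls, with Gls2 lower and Cdh1 higher in all 4.

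The question of the diet switch, HFCF against HF, gave the most calls. In control males 1 of 10 members was higher and 4 lower, beside 22.3% of all genes called, 13% higher and 9.31% lower. In labelled-knockout males 1 was higher and 6 lower (41.7% of all genes called, 21.6% higher and 20% lower). In control females 1 was higher and 4 lower (30.8% of all genes, 16.9% higher and 13.8% lower). In labelled-knockout females 1 was higher and 2 lower (14.5% of all genes, 8.44% higher and 6.01% lower). The diet switch thus called a large part of all genes, and the 10 members are to be read against that. Fits without a liver that stood apart added calls. Without control HFCF male 1, Lgr5, Oat and Rhbg were also called in control males. Without labelled-knockout HFCF female 1, Hal, Lgr5 and Sds were also called in labelled-knockout females. Without control HF female 1, Slc1a2 was also called in control females. Leaving out other livers removed calls in both female comparisons. The share of all genes called in these fits is not given, so the added calls are not read as a result about the members.

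Gls2 (ENSMUSG00000044005, chromosome 10, 128194457 to 128210004, plus strand) supplies ammonia to the periportal urea cycle. In control males it measured 259, 305 and 374 CPM (lowest, median and highest of 6 livers) on HF and 133, 154 and 253 on HFCF, and the groups did not overlap. In labelled-knockout males it measured 376, 522 and 541 CPM on HF and 170, 219 and 334 on HFCF, again without overlap. Every HFCF liver of either male genotype was thus below every HF liver of its own genotype. The log2 change was -0.86 (SE 0.14, adjusted p = 0.00146 by edgeR's quasi-likelihood test) in controls and -1.11 (SE 0.14, adjusted p = 2.16e-05) in labelled knockouts. In control females the 4 HF livers had 273, 343, 522 and 528 CPM of Gls2 and the 4 HFCF livers 196, 187, 295 and 149 CPM. The highest HFCF liver exceeded the lowest HF liver, which was control HF female 1, and no other pair crossed. In labelled-knockout females the HF livers had 620, 510, 608 and 584 CPM and the HFCF livers 473, 235, 224 and 181, with no overlap. The changes were -0.98 (SE 0.26, edgeR adjusted p = 0.0198) and -1.06 (SE 0.26, adjusted p = 0.0245). Of 8 fits that each left out 1 liver, the call remained in 3 in control females and in 3 in labelled-knockout females. The highest adjusted p in those fits were 0.0581 and 0.0770. Gls2 overlaps Spryd4 on the other strand, which had up to 674 reads a library against 2549 to 15755 for Gls2. Without strand, reads in the overlap cannot be separated. On HFCF Spryd4 differed by -0.27 in labelled-knockout males (edgeR adjusted p = 0.00498). It differed by -0.12 (adjusted p = 0.291) in control males and by -0.34 (adjusted p = 0.0731) in control females. In labelled-knockout females Spryd4 differed by -0.06 (adjusted p = 0.834).

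Hal (ENSMUSG00000020017, chromosome 10, 93488768 to 93519304, plus strand) catalyses the opening step of histidine breakdown, which releases ammonia. In control males it measured 185, 226 and 347 CPM (lowest, median and highest) on HF and 83.9, 105 and 205 on HFCF. Only control HFCF male 1 lay inside the HF range. In labelled-knockout males it measured 274, 455 and 564 CPM on HF and 83.6, 141 and 224 on HFCF, with no overlap. The log2 changes in Hal were -1.04 (SE 0.21, edgeR adjusted p = 0.00387) in control males and -1.57 (SE 0.20, adjusted p = 2.65e-05) in labelled-knockout males. Control females had 196, 360, 387 and 448 CPM of Hal on HF and 125, 121, 232 and 113 on HFCF, a change of -1.21 (SE 0.29, adjusted p = 0.0156). Labelled-knockout females had 483, 327, 549 and 486 CPM on HF and 413, 137, 134 and 110 on HFCF. There the change of -1.23 (SE 0.39) did not pass (adjusted p = 0.0598), and the one high HFCF liver was the one that stands apart. Hal's call remained in all 12 leave-one-out fits in each male genotype and in all 8 in control females.

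Sds (ENSMUSG00000029597, chromosome 5, 120476526 to 120483932, plus strand) converts serine to pyruvate and is a classical target of fasting and of glucagon. Of the 4 HFCF comparisons it was called in labelled-knockout males, where it measured 118, 182 and 211 CPM on HF and 72.0, 93.8 and 139 on HFCF. Those ranges overlapped, and the log2 change was -0.85 (SE 0.17, edgeR adjusted p = 0.000844). In control males the change was -0.26 (SE 0.21, adjusted p = 0.405), in control females -0.23 (SE 0.21, adjusted p = 0.422) and in labelled-knockout females -0.39 (SE 0.24, adjusted p = 0.318). Sds overlaps Plbd2 and Gm15690 on the other strand, and Plbd2 had up to 2155 reads a library. The libraries carry no strand, so the counts of Sds are uncertain where the genes overlap, by an amount not measured here. Plbd2 differed by -0.09 (adjusted p = 0.282) in that comparison of labelled-knockout males, and Gm15690 by -0.74 (adjusted p = 0.0278).

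Cdh1 (ENSMUSG00000000303, chromosome 8, 106603351 to 106670246, plus strand) encodes the adhesion protein of periportal hepatocytes, and bile duct epithelium also makes it. In control males it measured 17.2, 33.4 and 44.9 CPM (lowest, median and highest) on HF and 31.5, 61.8 and 85.1 on HFCF. In labelled-knockout males it measured 7.24, 14.7 and 26.3 CPM on HF and 31.7, 43.0 and 77.2 on HFCF, with no overlap. Cdh1 was thus the periportal marker that was higher on HFCF. The log2 changes were 0.97 (SE 0.26, edgeR adjusted p = 0.0172) in control males and 1.73 (SE 0.27, adjusted p = 0.000138) in labelled-knockout males. Control females had 43.8, 12.5, 11.5 and 10.2 CPM of Cdh1 on HF and 64.2, 73.0, 39.1 and 76.9 on HFCF, a change of 1.71 (SE 0.46, adjusted p = 0.0228). Without control HF female 1, whose Cdh1 lay inside the HFCF range, the change was 2.498 (edgeR adjusted p = 7.89e-05). That liver was picked by its Cdh1 level, so this value is no support for the call. In 6 of the 8 leave-one-out fits the call was lost. Labelled-knockout females had 13.5, 16.9, 13.8 and 18.3 CPM on HF and 23.7, 54.2, 53.8 and 48.7 on HFCF, without overlap and with a change of 1.54 (SE 0.24, adjusted p = 0.00457).

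Markers of bile duct epithelium moved with Cdh1. The summed CPM of the 10 listed genes (among them Epcam, Krt19, Krt7, Sox9, Spp1, Cftr, Prom1 and Muc1) ran from 133 to 250 in control HF males and from 188 to 624 in control HFCF males, and from 89.4 to 153 and 230 to 736 in the labelled knockouts. In females it ran from 74.6 to 314 on HF and 343 to 612 on HFCF in controls, and from 91.7 to 115 and 282 to 604 in labelled knockouts. In the 4 HFCF comparisons 9 of 9, 8 of 9, 8 of 9 and 7 of 8 tested markers were called higher, in the order control males, labelled-knockout males, control females and labelled-knockout females. The part of bile duct epithelium in the Cdh1 difference was not tested. Hepatocyte marker sums moved the other way, from 69470 to 94510 CPM in control HF males against 45760 to 69700 in control HFCF males, and stellate cell markers were 583 to 848 against 687 to 1318 CPM. In the same order of comparisons 6, 8, 6 and 0 of 9 hepatocyte markers were called lower, and 7, 9, 4 and 9 of 10 stellate cell markers and 7, 8, 7 and 4 of 10 macrophage markers higher. Their part in the lower levels of Hal and Gls2 was not tested.

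**Figure D3:**
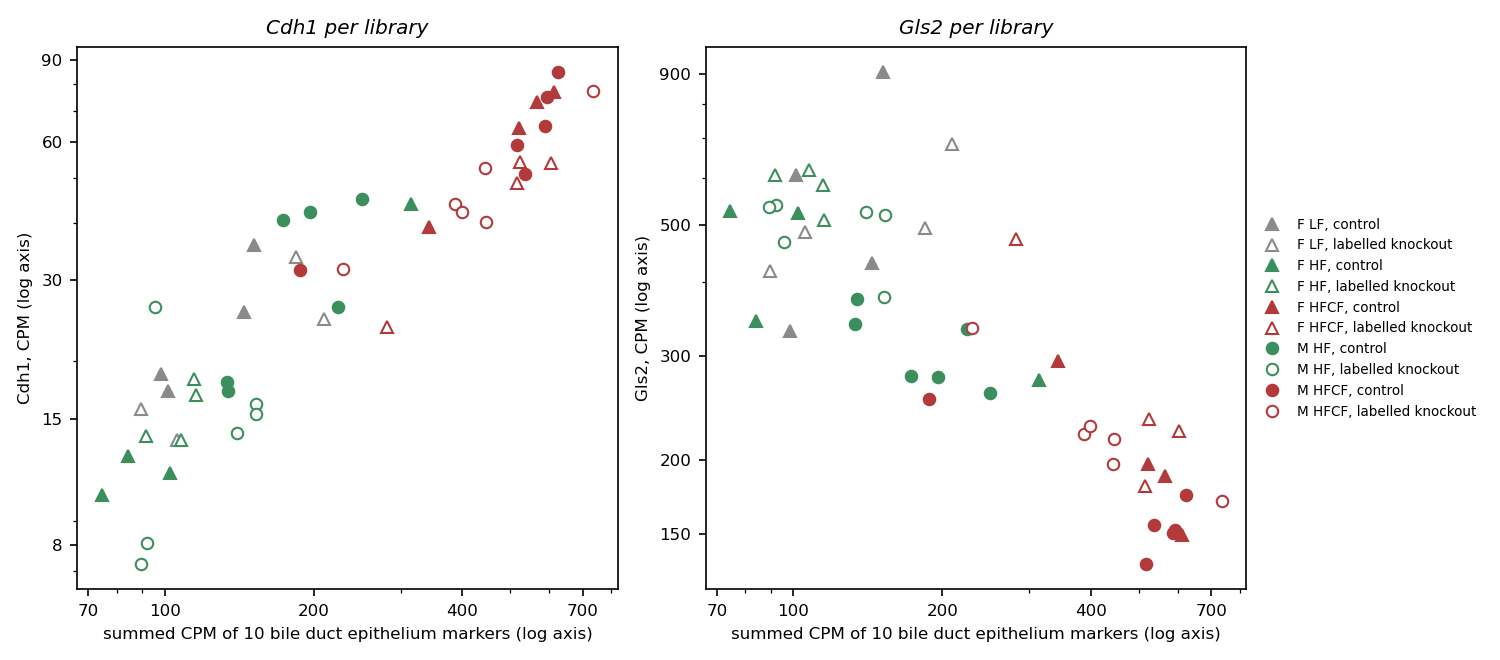
Cdh1 (left) and Gls2 (right) in CPM against the summed CPM of 10 bile duct epithelium markers, 1 point per liver, both axes logarithmic; circles are males, triangles females, filled points controls and open points labelled knockouts. Cdh1 and the marker sum are high together in HFCF livers, and the lone HFCF male control at a sum of 188 CPM is the one that stands apart.

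Among the pericentral genes, Glul (ENSMUSG00000026473, chromosome 1, 153899944 to 153909723, plus strand) is the defining marker of the cells around the central vein. It measured 1546, 1719 and 1946 CPM (lowest, median and highest) in control HF males and 1040, 1278 and 1652 in control HFCF males. The ranges met through control HFCF male 1, the highest of its group. The log2 change was -0.41 (SE 0.11, edgeR adjusted p = 0.0136), and the call remained in all 12 leave-one-out fits. In labelled-knockout males Glul differed by -0.18 (SE 0.08, adjusted p = 0.0999), in control females by -0.41 (SE 0.18, adjusted p = 0.103) and in labelled-knockout females by 0.04 (SE 0.18, adjusted p = 0.905).

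Slc1a2 (ENSMUSG00000005089, chromosome 2, 102658659 to 102790784, plus strand) takes up glutamate, the substrate of glutamine synthetase. In control males it measured 174, 256 and 320 CPM on HF and 116, 137 and 227 on HFCF, and in labelled-knockout males 260, 292 and 328 on HF and 138, 219 and 287 on HFCF. In each genotype part of the HFCF livers lay below the HF range. The log2 changes were -0.75 (SE 0.18, edgeR adjusted p = 0.00909) and -0.45 (SE 0.14, adjusted p = 0.0156). In control females Slc1a2 had 256, 271, 339 and 435 CPM on HF and 188, 216, 278 and 106 on HFCF, and the change of -0.70 (SE 0.27) did not pass (adjusted p = 0.0758). It was called there without control HF female 1, without control HFCF female 3, by DESeq2's Wald test and with all 10 groups in 1 fit. In labelled-knockout females it had 288, 281, 271 and 329 CPM on HF and 159, 201, 240 and 184 on HFCF. All HFCF livers there were below all HF livers, a change of -0.57 (SE 0.14, adjusted p = 0.0236), and the call remained in 4 of 8 leave-one-out fits.

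Oat (ENSMUSG00000030934, chromosome 7, 132557478 to 132576398, minus strand) fell in labelled-knockout males on HFCF, from 611, 1035 and 1282 CPM on HF to 399, 682 and 828. The log2 change was -0.61 (SE 0.18, edgeR adjusted p = 0.0138), with overlapping ranges. In control males it had 502, 663 and 1053 CPM on HF and 302, 371 and 1148 on HFCF, a change of -0.47 (SE 0.30, adjusted p = 0.281). That highest HFCF value was control HFCF male 1. Without that liver, which was picked by its Oat level, Oat was called, and this is no support for a change. In control females Oat differed by -0.51 (SE 0.34, adjusted p = 0.275) and in labelled-knockout females by -0.24 (SE 0.18, adjusted p = 0.422). Oat overlaps Fgfr2 on the same strand, which had up to 1296 reads a library against 5885 to 23576 for Oat. Rhbg (ENSMUSG00000104445, chromosome 3, 88242874 to 88254709, minus strand) was not called in any of the 4 HFCF comparisons, with changes from -0.50 (SE 0.27) in control males to 0.40 (SE 0.27) in labelled-knockout males.

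Lgr5 and Axin2 report on Wnt activity near the central vein. Lgr5 (ENSMUSG00000020140, chromosome 10, 115450311 to 115587780, minus strand) had 8.38, 21.3, 14.03 and 22.3 CPM in the control HF females and 8.48, 9.11, 8.81 and 8.65 in the control HFCF females. All HFCF livers lay in a narrow range at the level of control HF female 1, the lowest HF liver. The log2 change was -0.89 (SE 0.26, edgeR adjusted p = 0.0299), and the call remained in 2 of 8 leave-one-out fits. In labelled-knockout males Lgr5 went from 8.10, 10.2 and 15.3 CPM on HF to 5.94, 8.52 and 10.0 on HFCF, a change of -0.42 (SE 0.15, adjusted p = 0.0397) that remained called in 6 of 12 such fits. In control males it differed by -0.39 (SE 0.13, adjusted p = 0.0508) and in labelled-knockout females by -0.75 (SE 0.22, adjusted p = 0.05004). Both lay just above the threshold, so the lack of a call there is not read as no change.

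Axin2 (ENSMUSG00000000142, chromosome 11, 108920349 to 108950783, plus strand) had 16.3, 16.6, 20.3 and 28.6 CPM in control HF females and 13.9, 11.3, 13.03 and 8.81 in control HFCF females. The groups did not overlap. The log2 change was -0.77 (SE 0.20, edgeR adjusted p = 0.0191), and it remained called in 6 of 8 leave-one-out fits. In control males Axin2 had 11.2, 13.6 and 19.2 CPM on HF and 11.5, 13.6 and 15.5 on HFCF, a change of -0.05 (SE 0.12, adjusted p = 0.802). It differed by 0.19 (SE 0.15, adjusted p = 0.337) in labelled-knockout males and by -0.30 (SE 0.21, adjusted p = 0.358) in labelled-knockout females. The controls' diet difference of Axin2 was more positive in males than in females by 0.74 (SE 0.23, unadjusted p = 0.00467), which did not pass (edgeR adjusted p = 0.196). Without control HF female 1, a liver picked by its Cdh1 level, that interaction was called for Axin2, Cdh1 and Lgr5. The share of all genes called in that fit is not given, and no difference between the sexes is read from it.

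The labelled knockout was compared with its control on each diet. In HF males 4 of 10 members were called (18.5% of all genes tested), and all 4 were the periportal ones, 3 higher (8.57% of all genes) and 1 lower (9.88%). Gls2 had 259, 305 and 374 CPM (lowest, median and highest) in controls and 376, 522 and 541 in labelled knockouts, with no overlap and a log2 difference of 0.67 (SE 0.10, edgeR adjusted p = 0.000387). Hal went from 185, 226 and 347 CPM to 274, 455 and 564, a difference of 0.83 (SE 0.17, adjusted p = 0.00375), with 1 labelled-knockout liver inside the control range. Sds went from 70.2, 105 and 144 CPM to 118, 182 and 211, a difference of 0.72 (SE 0.17, adjusted p = 0.00865). These 3 amino acid enzymes were higher, and Cdh1 was lower, at 17.2, 33.4 and 44.9 CPM in controls and 7.24, 14.7 and 26.3 in labelled knockouts. Its difference was -1.13 (SE 0.30, adjusted p = 0.0167), and its ranges overlapped. The 4 calls remained in all 12 leave-one-out fits.

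Beside these values in HF males, the bile duct marker sums were 133 to 250 CPM in controls and 89.4 to 153 in labelled knockouts, with 1 of 8 tested markers called lower and 0 higher. Hepatocyte marker sums were 69470 to 94510 and 99680 to 114700 CPM, with 7 of 9 called higher. Stellate cell sums were 583 to 848 and 436 to 567 CPM, with 6 of 10 called lower, and 3 of 5 red blood cell genes were called higher. Their part in the periportal differences was not tested. Of Sds's overlapping genes, Plbd2 differed by -0.04 (edgeR adjusted p = 0.705) and Gm15690 by 1.21 (adjusted p = 0.0308). Spryd4, which overlaps Gls2, differed by 0.11 (adjusted p = 0.357). Among the pericentral genes Oat had the largest difference, 0.53 (SE 0.20, adjusted p = 0.0733), from 502, 663 and 1053 CPM to 611, 1035 and 1282. Glul, at 1546 to 1946 CPM in controls and 1416 to 1891 in labelled knockouts, differed by -0.02 (SE 0.08, adjusted p = 0.903).

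In HFCF males 0 members were called by edgeR (2.21% of all genes) and 0 by DESeq2's Wald test, with 3 at an unadjusted p under 0.05, as were 14.2% of all genes. Those 3 were Slc1a2 (0.53, SE 0.18, edgeR adjusted p = 0.171), Rhbg (0.61, SE 0.23, adjusted p = 0.218) and Gls2 (0.43, SE 0.17, adjusted p = 0.226). All 6 pericentral genes had positive differences there, from 0.11 for Axin2 to 0.61 for Rhbg. So did the periportal Gls2, Hal (0.31) and Sds (0.14), while Cdh1 differed by -0.34. The positive sign was thus not particular to the pericentral genes. Without control HFCF male 1, Gls2, Oat, Rhbg and Slc1a2 were called. That liver was picked for its high level of Oat, and the share of all genes called without it is not given. No labelled-knockout difference is read from these calls. The 235 genes for which the labelled-knockout difference itself differed between HFCF and HF males (1.56% of all genes) included 0 members by edgeR and 0 by the Wald test, with 2 members, Rhbg and Sds, at an unadjusted p under 0.05 (17.1% of all genes). Sds's difference was smaller on HFCF by 0.60 (SE 0.29, edgeR adjusted p = 0.291), and Rhbg's was more positive by 0.90 (SE 0.39, adjusted p = 0.238).

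In females the labelled knockout gave 0 called members on LF (0% of all genes), HF (0%) and HFCF (0.0534%), by edgeR and by the Wald test alike. On LF 1 member had an unadjusted p under 0.05 (2.49% of all genes), Slc1a2, at 236, 216, 229 and 213 CPM in controls and 241, 293, 263 and 275 in labelled knockouts. All 4 labelled knockouts exceeded all 4 controls, with a difference of 0.28 (SE 0.10, unadjusted p = 0.0236, edgeR adjusted p = 0.9996). On HF, where 8.03% of all genes had such a p, it was Gls2, with 273, 343, 522 and 528 CPM in controls, 620, 510, 608 and 584 in labelled knockouts and a difference of 0.50 (SE 0.20, adjusted p = 0.609). On HFCF it was none (8.95% of all genes). The differences between the sexes in the labelled-knockout effect on HF and on HFCF gave 0 called members each (0% of all genes), with 0 at an unadjusted p under 0.05 (10.6% and 9.67% of all genes) and 0 by the Wald test. The same held for the difference between HFCF and HF in females (0%, and 4.32% at the unadjusted threshold).

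The HF diet was compared with LF in females, where 0 members were called by edgeR in controls (0.696% of all genes) and 0 in labelled knockouts (0.155%). At an unadjusted p under 0.05 there were 3 members in controls (16.3% of all genes) and 1 in labelled knockouts (13.4%), and the Wald test called 1 in each, Slc1a2 and Sds. Sds had 540, 270, 163 and 213 CPM in the LF controls and 85.8, 152, 133 and 143 in the HF controls. All 4 HF livers were below all 4 LF livers, with a difference of -1.22 (SE 0.35, edgeR adjusted p = 0.134). In labelled knockouts Sds had 352, 275, 174 and 372 CPM on LF and 156, 112, 188 and 155 on HF, a difference of -0.94 (SE 0.24, adjusted p = 0.131). Plbd2, on the other strand, differed by 0.14 (adjusted p = 0.462) in those controls, and Gm15690 by -1.40 (adjusted p = 0.158). Slc1a2 in controls was 236, 216, 229 and 213 CPM on LF and 256, 271, 339 and 435 on HF, with no overlap and a difference of 0.53 (SE 0.16, adjusted p = 0.147). Glul in controls had 882, 1275, 1266 and 1613 CPM on LF and 1989, 1424, 1819 and 2064 on HF, a difference of 0.53 (SE 0.19, adjusted p = 0.203). In these controls all 6 pericentral differences were positive, from 0.16 for Oat to 0.73 for Rhbg, and all 4 periportal ones negative, from -0.32 for Cdh1 to -1.22 for Sds. The labelled knockouts did not show this split. There Glul (-0.12) and Lgr5 (-0.11) were negative, and Hal (0.03) and Gls2 (0.16) positive. The other members had the same sign as in controls. None of these differences passed edgeR's test in either genotype.

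Males were compared with females among controls. On HF 1 member was called (18.1% of all genes, 9.58% lower): Lgr5 was lower in males, at 7.32, 9.77 and 11.3 CPM (lowest, median and highest of 6) against 8.38, 21.3, 14.03 and 22.3 in females. The log2 difference was -0.78 (SE 0.23, edgeR adjusted p = 0.0321), and the ranges overlapped through control HF female 1. Axin2 had 11.2, 13.6 and 19.2 CPM in males and 16.3, 16.6, 20.3 and 28.6 in females, a difference of -0.52 (SE 0.18, adjusted p = 0.0578). Lgr5's call remained in 3 of 10 leave-one-out fits. Without control HF female 2 or 4 that call was lost (edgeR adjusted p = 0.12 and 0.114). Control HF female 1 was picked by its own Cdh1 level. Without it Axin2, Cdh1, Gls2, Hal and Oat were also called, and the share of all genes called there is not given. No difference between the sexes is read from these added calls. On HFCF 0 members were called by edgeR (2.63% of all genes) or by the Wald test, and 0 had an unadjusted p under 0.05 (15.1% of all genes). The sexes' diet changes in controls differed for 0 called members (0.00646% of all genes, 0 by the Wald test), with 1, Axin2, at an unadjusted p under 0.05 (16.5% of all genes).

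Wider lists of zonated and pathway genes were described by counts, and Alb and Cps1 stand both among the periportal genes and among the hepatocyte markers. In HF males 11 of 24 other pericentral genes were higher in labelled knockouts and 1 lower (median log2 difference 0.25), and 13 of 24 other periportal genes were higher and 1 lower (median 0.32), beside a median of 0.000204 over all genes. Cyp1a2, a xenobiotic-metabolising P450, was higher by 1.34 (edgeR adjusted p = 3.22e-05), and so was Avpr1a, a vasopressin receptor, by 1.28 (adjusted p = 0.000366). Of periportal genes, Sult5a1, a sulfotransferase, was higher by 1.04 (edgeR adjusted p = 0.0316), and Cps1, which commits ammonia to the urea cycle, by 0.73 (adjusted p = 0.00186). Ass1 and Asl, the next urea cycle steps in the cytosol, were higher by 0.63 (adjusted p = 0.00376) and 0.56 (adjusted p = 0.00166). In the glutamine and ammonia list 10 of 21 tested genes were higher and 1 was lower.

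**Figure D4:**
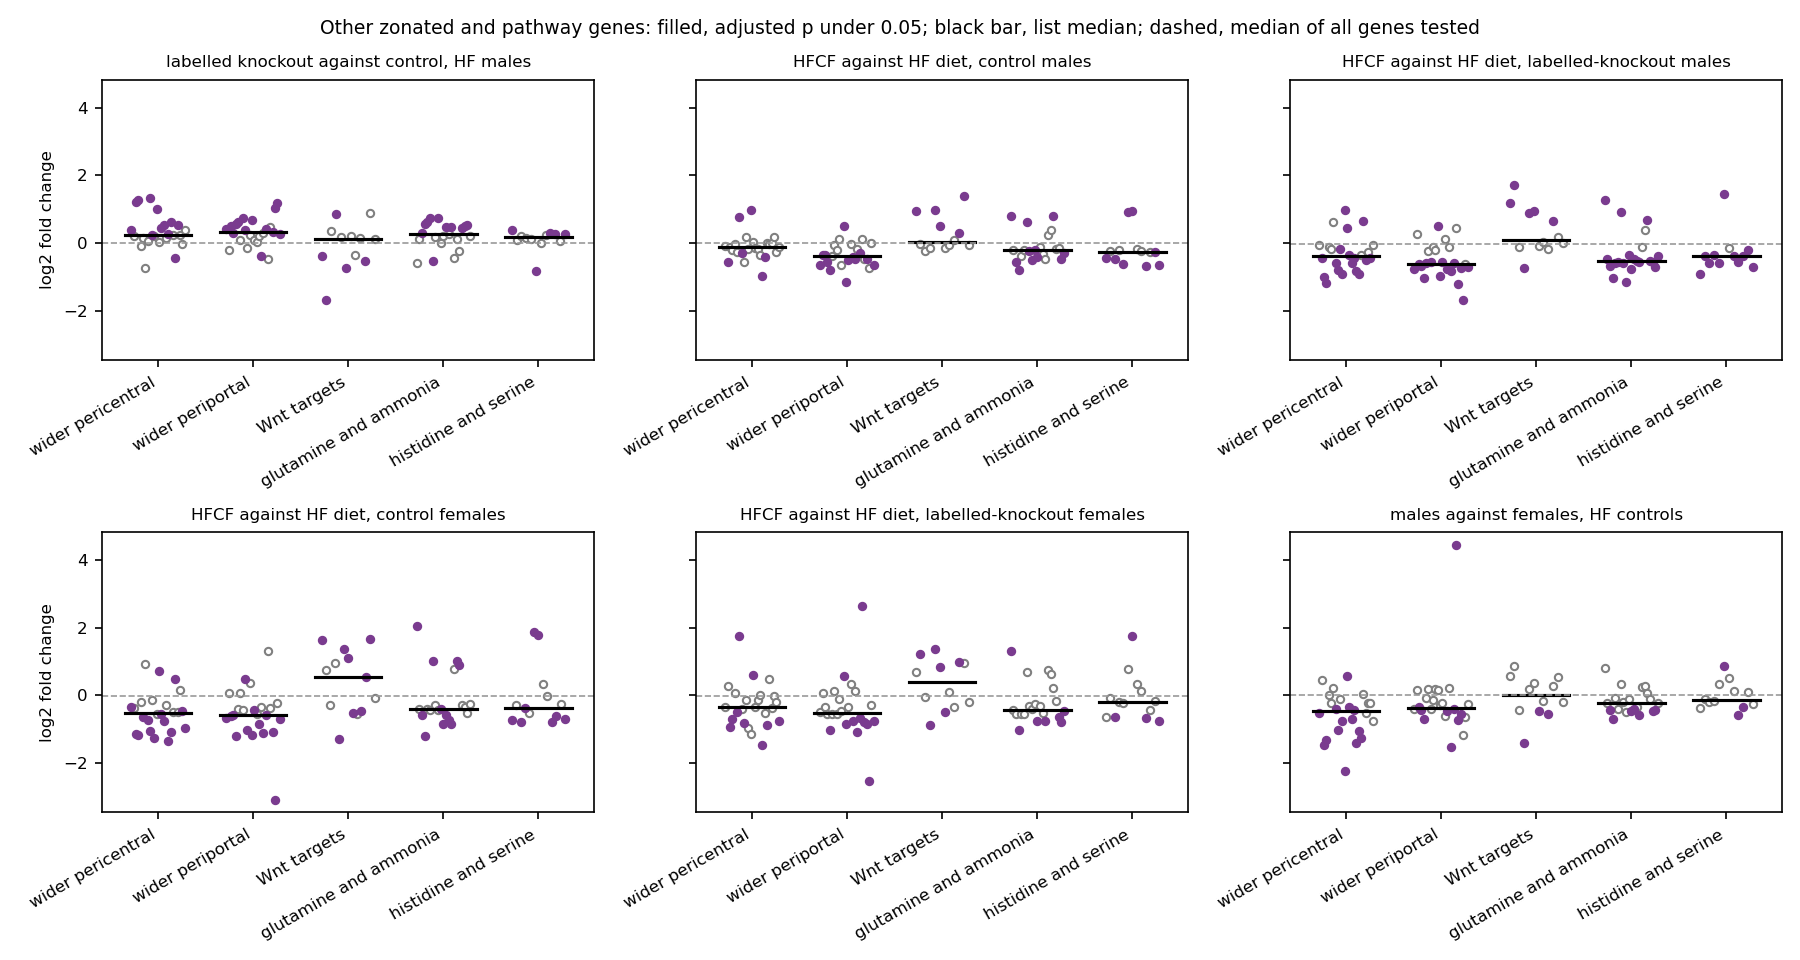
The log2 fold change of every tested gene of 5 lists in 6 comparisons; filled points have an adjusted p under 0.05, black bars are list medians and the dashed line is the median of all genes tested. Medians of the wider pericentral and periportal lists lie above 0 for the labelled knockout in HF males and below 0 for HFCF against HF.

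On HFCF more of the other periportal genes were called lower than higher: 12 of 24 in control males, 15 in labelled-knockout males, 13 in control females and 9 in labelled-knockout females, against 1, 1, 1 and 2 higher. Their medians were -0.39, -0.61, -0.57 and -0.52, beside 0.01, -0.02, -0.02 and -0.01 over all genes. Asl fell in all 4, by 0.79 to 1.22 (log2 changes of -0.79, -1.02, -1.22 and -1.02, with edgeR adjusted p of 0.00083, 1.53e-05, 0.00766 and 0.0146). Uroc1, the enzyme after Hal in histidine breakdown, changed by -0.65, -0.71, -0.69 and -0.75 (edgeR adjusted p of 0.00187, 7.8e-05, 0.00869 and 0.0108). Etnppl, an ethanolamine-phosphate lyase, changed by -1.15, -0.98, -1.17 and -0.84 (edgeR adjusted p of 0.00163, 0.000314, 0.00903 and 0.0343). The histidine and serine list held 6 of 13, 10 of 12, 6 of 13 and 3 of 13 lower genes and 2, 1, 2 and 1 higher. Psat1, of serine synthesis, was higher in all 4, with log2 changes of 0.96, 1.45, 1.79 and 1.74 (edgeR adjusted p of 0.00735, 0.000944, 0.0209 and 0.0258).

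The other pericentral genes gave 4, 14, 13 and 7 lower of 24 on HFCF in the same order, and 2, 3, 2 and 2 higher, with medians of -0.13, -0.39, -0.52 and -0.36. Cyp2e1, an ethanol-metabolising P450, changed by -0.91 (edgeR adjusted p = 9.22e-05) in labelled-knockout males and -1.28 (adjusted p = 0.0141) in control females. In control males its change was -0.18 (adjusted p = 0.497), and in labelled-knockout females -0.95 (adjusted p = 0.0680). Cyp1a2 was -0.57 (adjusted p = 0.0632) in control males and lower in the others, by -0.81, -1.05 and -0.81 (adjusted p of 0.00211, 0.0352 and 0.0180). Nr1i3, the receptor CAR, was lower in all 4, with -0.97, -0.82, -1.34 and -1.47 (edgeR adjusted p of 0.00341, 6.34e-05, 0.00694 and 0.00159).

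Genes of the Wnt pathway itself were also read. Of the 6 ligand and R-spondin genes tested at least once, the central vein ligands Wnt2 and Wnt9b and Rspo3 were called in none of the 4 HFCF comparisons. Wnt5a, a ligand known mostly for signals that bypass beta-catenin, was higher in labelled-knockout males (1.004, edgeR adjusted p = 8.75e-05), control females (1.11, adjusted p = 0.00784) and labelled-knockout females (1.17, adjusted p = 0.0475). Wnt4 was higher in labelled-knockout females (1.076, adjusted p = 0.0236). Of 10 receptors, Lgr4, a relative of Lgr5, was lower in all 4, by -0.41, -0.44, -0.54 and -0.70 (edgeR adjusted p of 0.00421, 0.00188, 0.0112 and 0.0024). Among other Wnt targets 5 of 12, 5 of 12, 5 of 13 and 4 of 12 were higher and 0, 1, 3 and 2 lower. Those higher in at least 1 comparison were Cd44, Rhoc, Prr5l, Tnfrsf19, Zbtb7c and Myc. Those lower were the feedback inhibitors of the pathway Notum (-0.74, adjusted p = 0.000171 in labelled-knockout males; -1.28, adjusted p = 0.0123 in control females; -0.86, adjusted p = 0.0238 in labelled-knockout females), Rnf43 (-0.52, adjusted p = 0.0352 and -0.49, adjusted p = 0.0358 in the females), and the transcription factor Tcf7 (-0.47, adjusted p = 0.0401 in control females). In HF males Notum was higher in labelled knockouts by 0.85 (adjusted p = 3.3e-06). Tbx3, a pericentral transcription factor, was lower on HFCF in control females (-0.98, adjusted p = 0.0187) and labelled-knockout females (-0.77, adjusted p = 0.0106). In males it differed by -0.12 (adjusted p = 0.764) and -0.06 (adjusted p = 0.844).

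Variation between livers of the same group was described by the Pearson r of log2 CPM after each group's mean was subtracted, over 48 libraries that share their depth and cell makeup as sources of variation. The 3 periportal enzymes varied together: Hal with Gls2 at r = 0.905, Sds with Gls2 at 0.833 and Hal with Sds at 0.774. Cdh1 ran against them, with r = -0.645 for Hal, -0.491 for Gls2 and -0.393 for Sds. Among pericentral genes Oat and Slc1a2 had r = 0.778, Glul and Slc1a2 0.607, and Lgr5 and Axin2 0.408. Oat also varied with the periportal Hal (0.609) and Gls2 (0.580). Rhbg, the member with the fewest reads, had r between -0.201 and 0.395 with the other 9.

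Among the 13440 genes averaging 1 CPM or more, those most like each member by that r were found. For Gls2 they were Cth (0.932), Gnmt (0.931) and Ass1 (0.921), for Hal they were Ivd (0.917), Ahcy (0.916) and Gls2, and for Sds they were Gls2, Got1 (0.822) and Ass1 (0.806). For Oat they were Lhpp (0.882), Cyp2a5 (0.856) and Clcn2 (0.805), and for Slc1a2 they were Oat, Dhtkd1 (0.762) and Stk35 (0.698). For Axin2 they were Tbx3 (0.740), Rnf43 (0.708) and Epha1 (0.640). For Cdh1 they were Foxj1 (0.848), Sox9 (0.835) and Scube3 (0.833), of which Sox9 is on the list of bile duct markers. Glul was most like Nceh1 (0.690), Lgr5 most like Dock4 (0.735) and Rhbg most like Agxt2 (0.681).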

How the data were processed

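Whole-liver RNA of 48 mice was sequenced with non strand specific libraries, per the labels. Per the submitters' processing notes, STAR 2.6.1, HTSeq 0.6.1 and DESeq2 were used with GRCm38 (mm10). The deposited read counts per gene are whole numbers without normalization, per the file headers, and 11 tables were joined into 29221 genes by 48 libraries (0 of 1341082 repeated values differed, 0 columns without a sample). The authors' FPKM values served for comparing genes. The authors' normalised signal, log2 fold changes and p-values were not used for any result. Coordinates are those of the tables, and 97.3% of 29181 shared genes have the same ones in GENCODE M21.

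CPM and tests used edgeR 4.0.16 in R 4.3.3 with TMM factors, filterByExpr and the quasi-likelihood F test on the groups compared, with Benjamini-Hochberg adjustment over all genes tested. The fit was tested on simulated data for the labelled knockout in HF males and in HF females, and not for the other comparisons. The simulation gave every gene the same dispersion, so it does not show how the fit performs at the spread of these members. Alternatives were DESeq2 1.42.0 size factors and Wald test, other count filters, all 10 groups in 1 fit, a replicate block and leaving out each liver. The members, wider lists and marker lists were chosen with earlier results of these data known. Named besides members were up to 4 called genes per direction, list and comparison, ranked by fold change, preset pathway genes, and the 3 genes most like each member. Reads where genes on opposite strands overlap cannot be separated without strand. Oat and Fgfr2 lie on the same strand, where strand would not separate them. Single genes of the lists whose values are withheld are not reported here, though counts and sums over their lists include them.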

Additional observations from a re-analysis of the deposited data

Results flagged for a closer look

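In 100 combinations of a member and a group, 9 held a liver whose gap to its nearest neighbour, divided by the group's range, exceeded Dixon's 95% critical value; chance alone does so in about 1 in 20 groups. All 9 were the highest liver of their group. Control HFCF male 1 had 1148 CPM of Oat (next highest 528), 205 CPM of Hal (next 115) and 253 CPM of Gls2 (next 174). Labelled-knockout HFCF male 6 had 334 CPM of Gls2 (next 228). Labelled-knockout HFCF female 1 had 413 CPM of Hal (next 137) and 186 CPM of Sds (next 95.7). Control HFCF female 3 had 232 CPM of Hal (next 125). Control HF female 1 had 43.8 CPM of Cdh1 (next 12.5). Control LF female 3 had 17.4 CPM of Lgr5 (next 11.0).

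The 4 HFCF livers high for periportal enzymes had low bile duct marker sums for their groups: 188 CPM in control male 1, 230 in labelled-knockout male 6, 343 in control female 3 and 282 in labelled-knockout female 1, each the lowest of its group. The part of those cells in the high values was not tested.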

How the results depend on the processing

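The 25 called member results kept their direction in all 416 values under the alternatives and their call in 364. All 25 remained called with DESeq2 size factors, the Wald test and no count filter, 24 with at least 10 counts in every library, 23 with all 10 groups in 1 fit and 17 with the replicate block. Counts of called members that moved by over 1.5 times were, for HF against LF, 1 by the Wald test and 2 with all groups in 1 fit in control females (0 as reported) and 1 by the Wald test in labelled-knockout females (0 as reported). For HFCF against HF in labelled-knockout females they were 5 with no filter and 5 with all groups (3 as reported). For males against females on HF they were 2 by the Wald test and 2 with all groups (1 as reported). Replicate numbers were not treated as pairs, since in 0 of 13 comparisons was every pair's r over 0.1. Of 58 pairs, with r from -0.293 to 0.435, 11 matched best with their own number. The rule fails on any single low pair, so it does not show that livers of the same number are unrelated. With the replicate block 0 members were called for HFCF against HF in control females (5 as reported) and 0 for males against females on HF (1 as reported). Leaving out each liver gave 4 to 5 called members for the labelled knockout in HF males and 0 to 4 in HFCF males. For HFCF against HF it gave 5 to 8 in control males, 6 to 7 in labelled-knockout males, 1 to 6 in control females and 1 to 6 in labelled-knockout females. It gave 0 to 6 for the sexes on HF and 0 to 3 for the difference of diet changes between the sexes. In the other comparisons it stayed at 0. The share of all genes called in each of these fits is not given, so these counts are not read as a result about the members. Depth limits Rhbg and Lgr5 most.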
